A study of Drosophila melanogaster with 14 samples.

Results

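Loss of Sep2 and loss of Sep5 were compared here for effects that do not add up: genes at which larvae with both mutations differed from the control by more or less than the sum of what each single mutant showed. For each gene the interaction was computed from group means of log2 CPM as the double mutant minus the Sep2 mutant minus the Sep5 mutant plus the control. A positive interaction places the double mutant above the sum of the single changes and a negative one places it below. The members are 12586 of 17869 genes, those above 0 log2 CPM in 3 or more of the 14 libraries; the other 5283 were not tested. At the edge of this filter, the third-highest library of Fer3 was at 0.00808 log2 CPM, just inside, and that of CR46150 at -0.00571, just outside. A gene that was low in some groups could pass through the groups in which it was high.

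Polyadenylated RNA of whole Drosophila melanogaster larvae of the third instar was sequenced in bulk, per the sample labels. The control was the white-eyed stock w1118 (4 libraries), the single mutants carried the allele Sep2[2] (3 libraries) or Sep5[2] (3 libraries), and the double mutant Sep2[2] Sep5[2] (4 libraries) is termed homozygous in the series text. The sources used here do not state how many animals made up a sample or whether the stocks share a genetic background. The protocol text speaks of adult flies, but the salivary glue proteins, made by larvae, had group medians of 8.14 to 10.93 log2 CPM, against -1.98 to -0.87 for 20 adult and female markers.

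Septins bind GTP and join into filaments at the cell membrane, at the cytokinetic ring and along the cytoskeleton. Septin2 and Septin5 of Drosophila belong to the same septin subgroup, and genetic work in flies has described them as partly redundant in the growth of imaginal discs, the larval precursors of the adult eye, leg and wing. With redundant genes each single loss is covered by the other gene and a change appears only when both are missing. The opposite pattern, in which each single loss already gives the whole change and the second loss adds nothing, is termed saturation.

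Reads per library ranged from 8858393 to 47203028. Sep5 mutant replicate 2 and Sep2 mutant replicate 3 stood apart from the other libraries of their genotype on the first principal component, which held 50.4% of the variance. Sep5 mutant replicate 2 scored -34 against 16.6 and 26.4, and Sep2 mutant replicate 3 scored 6.4 against -31.5 and -38.6, with the control between -63.1 and -41.5 and the double mutant between 55 and 85.5. Between 10.6% and 24.9% of reads in double mutants came from the large mitochondrial ribosomal RNA, against 4.74% to 11.8% in the other groups. As to the mutated genes, Septin2 stood at 0.726, 0.27, 0.669 and 9.11 CPM in double mutants, so replicate 4 was the high library, against 21.7 to 29.4 in Sep2 mutants, 46.6 to 67.2 in the control and 47.8 to 78.5 in Sep5 mutants. The change of Septin2 in Sep2 mutants (-1.09, adjusted p = 0.410 in limma) was not called, and double mutants were lower than Sep2 mutants by 4.44 on the log2 scale (adjusted p = 0.00110). Septin5 was at 0.116 to 1.34 CPM in double mutants and at most 0.0681 in Sep5 mutants, against 3.58 to 8.01 in the control and the Sep2 mutant. Double mutants were higher than Sep5 mutants for Septin5 by 2.31 on the log2 scale (adjusted p = 0.0207 in limma). The RNA of each mutated gene thus differed between its single mutant and the double mutant, while the interaction treats the 2 losses as alike. The part of this in the interactions was not tested.

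The interaction was called for 562 genes, which is 4.47% of those tested, at an adjusted p under 0.05 in limma, the threshold used throughout. Of these, 278 (2.21%) lay above the sum of the single mutants and 284 (2.26%) below. The median interaction over all genes tested was -0.06 with a median standard error of 0.37 (log2 scale), so that smaller departures from the sum were mostly out of reach; 2599 genes had an unadjusted p under 0.05. The double mutant against the control gave 5658 calls (45%), the Sep2 mutant 566 (4.5%; 410 higher, 3.26%) and the Sep5 mutant 646 (5.13%; 490 higher, 3.89%), all 3 against the same control libraries. The count of interactions depended on single libraries: it was 278 without control replicate 2, 313 without control replicate 3, 314 without double mutant replicate 3, 282 and 291 without Sep5 mutant replicates 1 and 2, and 227 and 226 without Sep2 mutant replicates 1 and 2. Of the 562 genes, 181 were called in each of the 14 fits that leave out 1 library, and a call kept in all of these is termed stable below. Without both libraries that stood apart, Sep5 mutant replicate 2 and Sep2 mutant replicate 3, 190 genes were called, 182 of them among the 562. In a fit with the replicate number as a block across all genotypes, 440 were called, 341 of them among the 562. The blocked value is given below where it changes a gene's call.

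**Figure D1:**
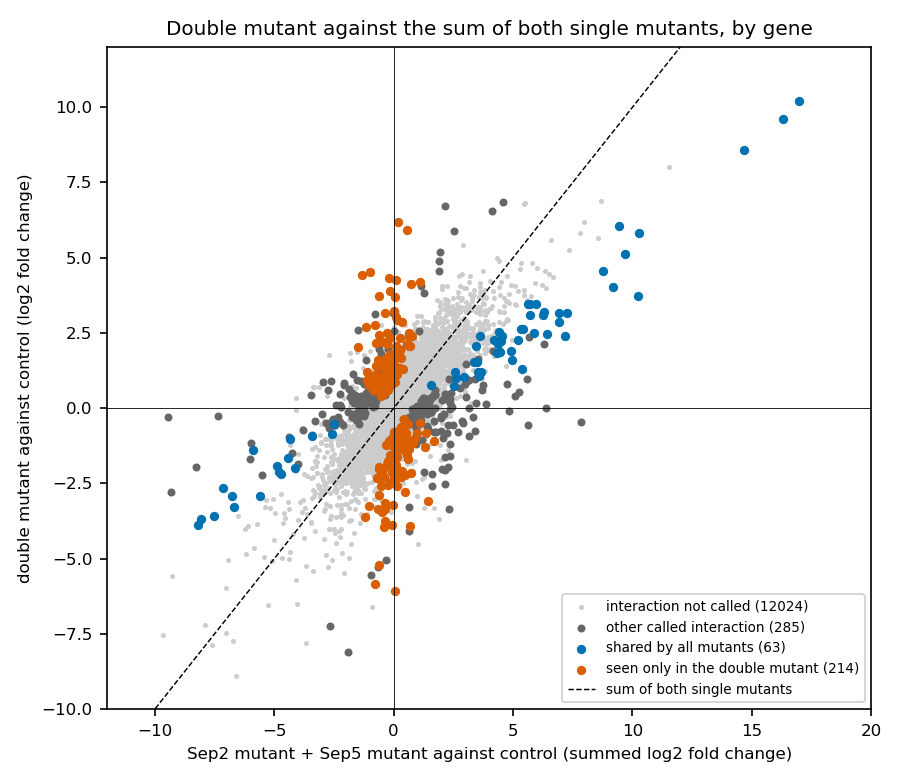
Each point is 1 of 12586 genes, with the sum of the log2 changes of both single mutants against the control on the horizontal axis and the log2 change of the double mutant on the vertical axis. On the dashed line the changes add up; the 63 genes shared by all mutants lie between that line and the horizontal axis, and the 214 genes seen only in double mutants lie along the vertical axis.

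The called genes were separated by a fixed rule into changes shared by all mutants and changes seen only in double mutants. A change is shared where all 3 mutants were called against the control in the same direction and the interaction was called in the opposite direction, so that the double mutant fell short of the sum. This held for 63 genes (0.501% of those tested), 46 of them higher and 17 lower in the mutants. A change is seen only in double mutants where the double mutant was called against the control and against each single mutant in the direction of the interaction, while neither single mutant was called and both were within 2-fold of the control. This held for 214 genes (1.7%), 126 higher and 88 lower. After each library was centred on its median the split was 125 higher and 49 lower, and after quantile normalization 151 and 77, whereas the shared genes split into 44 and 17 and into 47 and 26. The remaining 285 genes took other forms, described last.

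Across all genes, 168 were called in the same direction in all 3 mutants, and in none of them was the double mutant called beyond the sum. The interaction was called against the sum in 63, the shared genes, and was not called in 105, although its estimate pointed that way in 164 of the 168. The last count tests nothing, because the single mutant changes that chose the 168 enter the interaction with the opposite sign. Between the double mutant and the mean of both single mutants, a comparison that leaves out the control, 113 of the 168 were not called, 49 lay further out in double mutants and 6 lay nearer to the control. In this design a change shared by all mutants is the same as a difference of the control libraries from all other libraries, and these cannot be told apart.

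The 46 shared genes that were higher had median log2 changes of 2.57 in Sep2 mutants, 2.7 in Sep5 mutants and 2.43 in double mutants, with a median interaction of -2.67. Of the 17 that were lower the medians were -2.66, -2.57 and -2.11, with a median interaction of 2.97. The difference between the double mutant and the mean of the single mutants had a median of -0.07 among the former and 0.42 among the latter, and was called in 8 of the 63, in 6 of these towards the control. These values describe the genes and test nothing, because the same contrasts chose them. Control libraries lay wholly apart from the 10 mutant libraries in 59 of the 63, and in 508 (4.04%) of all genes tested.

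The shared genes that were lower included the photolyase phr, an enzyme that repairs ultraviolet damage in DNA (chromosome 2R, 7825289 to 7827319). It was at 29, 32.1, 25.9 and 31.2 CPM in the control, at 4.59, 4.33 and 4.87 in Sep2 mutants, at 4.22, 3.81 and 3.43 in Sep5 mutants and at 3.56, 3.36, 3.35 and 5.18 in double mutants. All mutant libraries lay far below all control libraries, and the double mutant overlapped each single mutant. The log2 change was -2.66, -2.93 and -2.93 (SE 0.18 for the double mutant) in the Sep2, Sep5 and double mutant, and the interaction was 2.66 (SE 0.27, adjusted p = 0.000207). The double mutant differed from the mean of the single mutants by -0.14 (adjusted p = 0.540). The gene lies within 1 Mb of Septin5 on the same arm, as do the shared genes Cyp6a13 and Cyp6a15Psi, which makes 3 of 63 (4.76%) beside 2.32% of all genes tested.

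Listericin, an antibacterial peptide (2R, 11241745 to 11242194), fell in every mutant but least in double mutants. Its level was 241, 181, 113 and 206 CPM in the control, 16.3, 18.8 and 19.1 in Sep2 mutants, 38.2, 16.7 and 39.2 in Sep5 mutants and 116, 106, 49.1 and 36.2 in double mutants. Double mutant replicates 1 and 2 reached or neared the lowest control library, while all Sep2 mutant libraries lay below the double mutant. The changes were -3.30, -2.61 and -1.38 (SE 0.38) with an interaction of 4.53 (SE 0.57, adjusted p = 0.000965), and the double mutant was above the mean of the single mutants by 1.57 (adjusted p = 0.00483). Among the 16 tested antimicrobial peptides, Listericin was the member with a called interaction (6.25%, beside 4.47% of all genes).

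The cytochrome P450 gene Cyp6a13 (2R, 8570499 to 8572147) had the same form. Control libraries were at 57.6, 53.9, 45.4 and 49.4 CPM, the Sep2 mutant at 14.1, 14.6 and 15.9, the Sep5 mutant at 13.8, 16.1 and 19.3, and the double mutant at 30.2, 34.8, 32.1 and 15.9. All but replicate 4 of the double mutant lay between the control and the single mutants, and its mean exceeded that of the single mutants by 0.80 (adjusted p = 0.00984). Frmd5, which encodes a FERM-domain protein, exceeded the single mutants by 0.71 (adjusted p = 0.0124), with 9.03, 8.91, 8.50 and 7.15 CPM in the control, 3.15 to 3.75 in Sep2 mutants, 2.82 to 3.81 in Sep5 mutants and 4.71 to 8.17 in double mutants. The means of CG10508 and lncRNA:CR44042 in double mutants also lay between those of the control and the single mutants, but their differences between the double mutant and the mean of the single mutants were not called (0.42, adjusted p = 0.0560, and 0.55, adjusted p = 0.106).

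Among the shared genes that were higher, the P450 gene Cyp6a17 (2R, 14873953 to 14875739) was nearly silent in the control, with 0.144, 0.0267, 0.0506 and 1.1 CPM, which is 6, 1, 1 and 30 reads. Its level was 25.2, 33.8 and 44.2 CPM in Sep2 mutants, 61.6, 30.1 and 54.5 in Sep5 mutants and 76.8, 133, 85.3 and 87.7 in double mutants. No double mutant library overlapped any other, yet the step from the single mutants was small beside the step from the control. The fitted changes were 7.09, 7.57 and 8.57 (SE 0.57), the interaction -6.09 (SE 0.86, adjusted p = 0.00208), and the difference from the mean of the single mutants 1.24 (adjusted p = 0.0843). With so few control reads the size of these changes depends on the count that the authors added before taking logs.

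The lysozyme cluster on 3L (1207371 to 1218696) gave 5 of the 63 shared genes. LysP, a salivary lysozyme, was at 1.39 to 1.98 CPM in the control, 19.9, 12.7 and 30.3 in Sep2 mutants, 24.7, 6.45 and 9.78 in Sep5 mutants and 13.8, 21.6, 15.3 and 12.9 in double mutants. Its interaction was -3.11 (SE 0.55, adjusted p = 0.00744) and the double mutant differed from the single mutants by 0.04 (adjusted p = 0.936). LysB, LysC, LysD and LysE are near-identical copies, and LysC and LysD overlap, so their reads cannot be apportioned with certainty. Of these 4, LysB and LysD were called higher in double mutants than in Sep5 mutants, as were 649 of all genes tested (5.16%).

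Cyp12d1-p, a P450 with a near-identical neighbour copy, stood at 0.456, 1.01, 0.556 and 0.513 CPM in the control, 7.01, 5.47 and 7.91 in Sep2 mutants, 3.61, 4.54 and 4.41 in Sep5 mutants and 7.71, 5.90, 7.63 and 8.66 in double mutants. The changes of 3.31, 2.63 and 3.45 left an interaction of -2.49 (SE 0.37, adjusted p = 0.00272). CG3819 went from 1.43 to 4.80 CPM in the control to 107, 109 and 152 in Sep2 mutants, 33, 52.2 and 91.3 in Sep5 mutants and 51.8, 60.3, 159 and 181 in double mutants (interaction -4.58, SE 0.69, adjusted p = 0.00272). For this gene the double mutant overlapped each single mutant, and all mutant libraries lay clear of the control. The hairpin RNA hpRNA:CR33940 was at 1.1 to 2 CPM in the control and between 8.57 and 21 in every mutant library, and its interaction was -2.62 (SE 0.39, adjusted p = 0.00272).

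**Figure D2:**
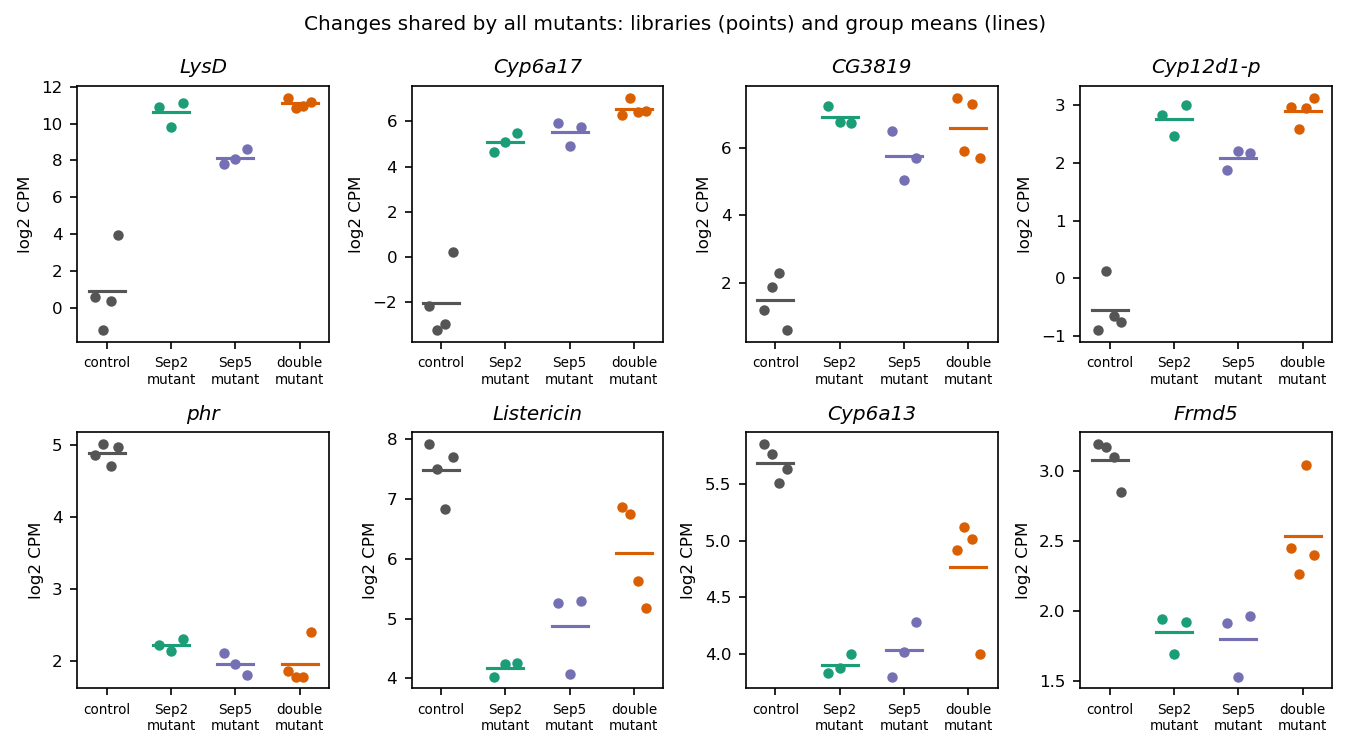
Deposited log2 CPM (vertical axis) of 8 shared genes in the 4 genotypes, with 1 point per library and a line at the group mean. In the upper row (LysD, Cyp6a17, CG3819, Cyp12d1-p) every mutant library lies above the control, and in the lower row (phr, Listericin, Cyp6a13, Frmd5) the single mutants lie below it; double mutant libraries of Listericin and Frmd5 reach control levels.

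Whether the shared genes that were higher count as saturated depends on the scale. The interaction asks on the log scale whether fold changes multiply. When the same fit was made on CPM values, where changes add, 8 of the 46 kept a called interaction and 2, Cyp6a17 and LysD, changed sign, whereas 15 of the 17 that were lower kept it. On that scale a level cannot go below 0, so large falls cannot add up. Leaving out each library in turn, 28 of the 46 and 15 of the 17 kept the called interaction in every fit. All conditions of the shared form were met in every fit by 23 of the 46 and 14 of the 17. Without both libraries that stood apart, the interactions of LysD (adjusted p = 0.0555), LysC (0.0707) and GstZ1 (0.0976) were not called, and those of the other shared genes described here were.

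Protein-coding genes made up 61.9% of the 63 and 93.4% of all tested, and 20 of the 63 were non-coding RNAs. Many were low, with 50.8% under a mean of 2 log2 CPM against 20.5% of all tested, and a median of 1.85 against 4.05 log2 CPM. Chromosome arm 2R held 36.5% of them against 20.1% of all tested, and the X held 3.17% against 15.6%. Their neighbours were sometimes shared genes too, with 13 of the 63 in 5 runs spaced within 20 kb. How many runs an equal number of other tested genes would form was not tested. Long non-coding RNAs gave 18 of the 63; the sources used here do not state whether counting used the strand, so reads of overlapping partners cannot be told apart.

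Genes changed only in double mutants were more numerous. The double mutant was called without either single mutant in 4862 genes, but most of these were not shown to be non-additive: the interaction was called in the same direction in 270, the double mutant differed from each of the single mutants in 751, and from neither in 2378. In 3505 of the 4862 the estimates of all 3 mutants had the same sign. The 214 genes that met every condition had medians, where higher, of -0.32 in Sep2 mutants, 0.01 in Sep5 mutants and 1.21 in double mutants, and where lower, of 0.26, -0.19 and -1.81. The 95% intervals of both single mutants stayed within 2-fold of the control for 110 and within 4-fold for 204 of the 214. Double mutant libraries lay apart from all others in 206 of the 214, beside 1498 (11.9%) of all genes tested, a separation that the choice of genes largely fixes. The count fell to 91, 95, 106, 99, 60, 70 and 70 without control replicates 2 and 3, double mutant replicate 3, Sep5 mutant replicates 1 and 2 and Sep2 mutant replicates 1 and 2, and to 35 without both libraries that stood apart.

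Regulators of imaginal disc and sense organ development were among the 88 genes that were lower. The lists used for them were drawn up after the values of single genes had been seen, so their counts are descriptions. In whole larvae fewer cells of a type and less RNA per cell cannot be told apart. The labels give the third instar but no age within it. Summed salivary glue RNA was 856 to 7020 CPM in double mutants and 4920 to 20900 in the control. It was 20000 to 23300 in Sep2 mutants and 4130 to 15900 in Sep5 mutants. Summed RNA of the new-glue salivary genes was 247 to 852, 18.5 to 87.9, 136 to 227 and 77.4 to 383 CPM in the same order. The part of larval age in these results was not tested. Of 47 disc patterning genes tested, 8 had a called interaction, all negative and all seen only in double mutants (17%, beside 4.47% of all genes). Against the control 28 of the 47 were lower in double mutants (22.5% of all genes) and 1 was higher, and none was called in either single mutant. Double mutants were lower than Sep2 mutants in 27 (12.9% of all genes) and lower than Sep5 mutants in 20 (3.75%). Their median interaction was -0.46, beside -0.06 over all genes.

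One of these was glass, gl, a zinc finger transcription factor that specifies photoreceptor neurons in the eye disc (3R, 18367927 to 18372738). It stood at 13.5, 7.37, 7.18 and 8.87 CPM in the control, 8.52, 7.55 and 7.96 in Sep2 mutants, 7.83, 8.84 and 6.05 in Sep5 mutants and 0.207, 0.424, 0.536 and 1.2 in double mutants. Single mutants and control overlapped and every double mutant library was lower. The double mutant change was -3.95 (SE 0.36), against -0.16 (95% interval -0.99 to 0.68) and -0.25 (-1.08 to 0.58) in the single mutants, with an interaction of -3.55 (SE 0.55, adjusted p = 0.00335). The forkhead factor fd96Ca was at 4.28, 2.06, 3.29 and 5.50 CPM in the control, 3.15 to 4.17 in Sep2 mutants, 2.38 to 3.06 in Sep5 mutants and 0.173 to 0.536 in double mutants (interaction -2.79, SE 0.53, adjusted p = 0.0107). Its neighbour fd96Cb was called as well, at -3.27 (adjusted p = 0.0252), in 9 of the 14 fits.

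Distal-less (Dll), which sets up the far part of legs and antennae, was at 45.5, 28.9, 35.5 and 47.6 CPM in the control, 29.5 to 42.6 in Sep2 mutants, 25.9 to 31.7 in Sep5 mutants and 4.22, 7.21, 8.03 and 14.6 in double mutants. The wing selector vestigial (vg) was at 15.6, 7.50, 6.98 and 12.7, then 8.26 to 11.6, 7.22 to 9.03 and 1.35 to 3.87 CPM in the same order. Both fell in double mutants, by 2.31 and 2.30 on the log2 scale. Their interactions, -1.78 (adjusted p = 0.0389) and -1.88 (0.0465), were fragile and kept in 4 and 3 of the 14 fits. TfAP-2 was kept in 7, zfh2 in 3 (adjusted p = 0.0861 with the replicate block) and the Notch-modifying glycosyltransferase fringe (fng) in 2.

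Genes of the Enhancer of split complex, which encode the transcriptional repressors and Bearded-family proteins switched on by Notch signalling during lateral inhibition, were lower in double mutants for part of the complex. Of the 11 members 5 had a called interaction (45.5%, beside 4.47% of all genes), all negative, and 6 were lower against the control (22.5% of all genes). E(spl)mdelta-HLH (3R, 25997621 to 25998633) was at 3.65, 3.58, 3.39 and 6.74 CPM in the control, 5.38, 6.01 and 4.73 in Sep2 mutants, 3.81, 4.35 and 2.84 in Sep5 mutants and 0.657, 0.54, 0.402 and 1.08 in double mutants. Control replicate 4 was the high library and the double mutant lay below all others, with an interaction of -2.73 (SE 0.45, adjusted p = 0.00497). E(spl)m2-BFM (-2.56, adjusted p = 0.0121), E(spl)m7-HLH (-2.10, 0.00761) and E(spl)m8-HLH (-1.78, 0.0170) were called in all 14 fits and E(spl)malpha-BFM (-2.31, 0.0272) in 6.

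The other 6 members had no called interaction. E(spl)mgamma-HLH, beside E(spl)mdelta-HLH, was at 4.05 to 7.75 CPM in double mutants and 4.23 to 10.3 in the control (interaction -0.69, 95% interval of the double mutant change -0.78 to 0.39, adjusted p of the interaction 0.390). E(spl)mbeta-HLH was at 18.4 to 28.2 CPM against 26.4 to 29.1 in the control, with an interaction of -0.61 (adjusted p = 0.168). E(spl)m5-HLH, at 0.968 to 1.31 against 0.507 to 2.02 CPM, had an interaction of -0.17 (adjusted p = 0.907). E(spl)m3-HLH, E(spl)m4-BFM and E(spl)m6-BFM had interactions of -0.64, -1.31 and -0.66 that were not called. With the replicate block E(spl)m4-BFM (-1.96, adjusted p = 0.00929) and E(spl)mgamma-HLH (-1.13, 0.0441) were called too.

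The Bearded family outside the complex, whose proteins restrain Notch ligand activation, had a called interaction in 2 of 3 tested genes (66.7%, beside 4.47% of all genes). Tom (3L, 14969344 to 14970306) was at 24.5, 18.5, 22.3 and 33.1 CPM in the control, 30.9, 27.5 and 26.6 in Sep2 mutants, 22.1, 27 and 15.6 in Sep5 mutants and 3.39, 3.05, 4.95 and 5.98 in double mutants. The single mutants overlapped the control and the double mutant was below every other library, with an interaction of -2.54 (SE 0.37, adjusted p = 0.00271). Its neighbour Brd had -2.44 (adjusted p = 0.0180; 0.0621 without replicate 1 of the Sep2 mutant), and Ocho -0.45 (0.592). The receptor gene Notch itself (N) fell in double mutants by 1.15 on the log2 scale, from 109 to 246 CPM in the control to 49.8 to 96.3, with an interaction of -1.13 that was not called (adjusted p = 0.123). In a list of 17 Notch pathway genes, which counts fng again, 10 were lower in double mutants (22.5% of all genes). The interaction was called in 17.6% of the list, beside 4.47% of all genes: lower for bib and fng and higher for Su(dx). Of these, fng was kept in 2 and Su(dx) in 1 of the 14 fits. With the replicate block Su(dx) was not called (adjusted p = 0.0886).

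**Figure D3:**
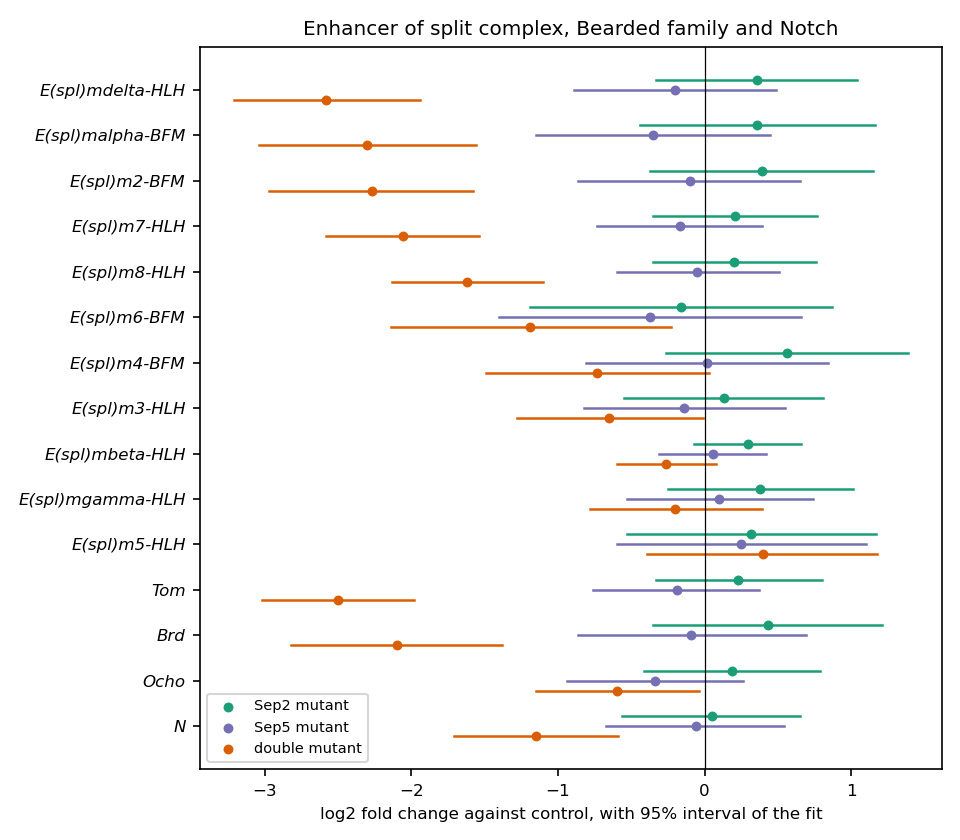
Log2 fold change against the control, with the 95% interval of the fit (horizontal axis), in the Sep2, Sep5 and double mutant for 11 Enhancer of split complex genes, 3 Bearded family genes and N. Both single mutants sit near 0 in every row; the double mutant is at -1.62 or lower for the 5 called complex genes, Tom and Brd, and near the single mutants for E(spl)mgamma-HLH, E(spl)mbeta-HLH and E(spl)m5-HLH.

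Proneural genes encode the basic helix-loop-helix activators that give cells a neural fate, and 2 of 6 tested had a called interaction (33.3%, beside 4.47% of all genes). Scute (sc) was at 3.34, 2, 2.83 and 8.43 CPM in the control, 5.05 to 5.92 in Sep2 mutants, 1.19 to 3.61 in Sep5 mutants and 0.171 to 0.424 in double mutants (interaction -3.20, SE 0.64, adjusted p = 0.0143). Atonal (ato), the proneural gene of photoreceptors and stretch receptors, was at 2.22 to 3.01 CPM in the control, 2.65 to 3.98 in Sep2 mutants, 2.38 to 2.69 in Sep5 mutants and 0.207, 0.347, 0.803 and 0.74 in double mutants (-2.70, SE 0.50, adjusted p = 0.00957). For both, every double mutant library was below all others.

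Some planar polarity and apical matrix genes had the same form. Dachsous (ds), a giant cadherin that binds Fat and orients tissue growth (2L, 640013 to 714983), was at 182, 109, 114 and 151 CPM in the control, 177, 113 and 165 in Sep2 mutants, 116, 128 and 138 in Sep5 mutants and between 23.4 and 46.8 in double mutants. The double mutant lay below every other library. Its interaction was -2.13 (SE 0.35, adjusted p = 0.00454) and the single mutant changes were 0.13 (95% interval -0.40 to 0.66) and -0.10 (-0.63 to 0.43). Of 17 Fat-Dachsous and planar polarity genes 11 were lower and 2 higher in double mutants, beside 22.5% of all genes in each direction. The interaction was called in 3 of the 17 (17.6%, beside 4.47% of all genes): dachs and fz were the others, each in 2 of the 14 fits, and fz was not called with the replicate block (adjusted p = 0.0643). The zona pellucida proteins of the apical matrix gave mey (-2.98, SE 0.54, adjusted p = 0.00807), neo (-2.32, SE 0.38, 0.00454) and nyo (-2.07, SE 0.39, 0.0107) among 9 tested (33.3%, beside 4.47% of all genes). The gene neo was at 19.3 to 31.3 CPM in the control, 26.2 to 32.5 in Sep2 mutants, 12.4 to 25.1 in Sep5 mutants and 3.18 to 5.75 in double mutants, and mey and nyo likewise did not overlap.

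Cell division genes were partly of this form. The citron kinase gene sticky (sti), which acts at the cytokinetic ring, was at 34.4, 29.1, 28.8 and 35.1 CPM in the control, 37.5, 36.3 and 47.9 in Sep2 mutants, 35.4, 35.3 and 37.7 in Sep5 mutants and 15.6, 19.2, 17.7 and 18.8 in double mutants. The single mutants lay just above the control and the double mutant below it, with an interaction of -1.36 (SE 0.21, adjusted p = 0.00354). It was the only member with a called interaction among 17 cytokinesis genes tested (5.88%, beside 4.47% of all genes), 8 of which were lower and 1 higher in double mutants, beside 22.5% of all genes in each direction. The spindle protein gene asp had -0.94 (adjusted p = 0.0252; 0.0681 with the replicate block), kept in 8 of the 14 fits.

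Of the 27 cell cycle and replication genes, 6 had a called interaction, all negative (22.2%, beside 4.47% of all genes). Higher calls in Sep2 mutants were made for 4 of the 27 (3.26% of all genes), and 1 was seen only in double mutants (1.7% of all genes). Cdk1, the mitotic kinase, was at 16.5 to 22.9 CPM in the control, 32.9, 45.2 and 30.7 in Sep2 mutants, 19.8, 19.3 and 18.5 in Sep5 mutants and 13.5, 11.5, 12.3 and 10.5 in double mutants. It was thus called higher in Sep2 mutants (0.92, adjusted p = 0.00693) and lower in double mutants (-0.66, 0.00475), and the interaction was -1.60 (SE 0.25, adjusted p = 0.00315). PCNA, the replication clamp, and geminin, the inhibitor of replication licensing, were called higher in Sep2 mutants (1.02 and 0.60) and not called in double mutants (0.02 and -0.26), with interactions of -1.37 (adjusted p = 0.0157) and -1.02 (0.0115). CycA, fzy and Mcm7 were the others.

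Neighbouring genes on 3R without a given name were close to silent in double mutants. CG11892 (25281548 to 25283237) was at 49, 55.4, 60.1 and 78.3 CPM in the control, 66, 94.7 and 62.7 in Sep2 mutants, 80.3, 33.2 and 50.5 in Sep5 mutants and 1, 0.347, 0.134 and 6.04 in double mutants, where 0.134 CPM is 1 read. CG10514, next to it, was at 20, 23.8, 29.6 and 34.5, then 32.6, 45 and 33.7, then 40, 21.5 and 33.2, and in double mutants 2.07, 1.16, 0.803 and 3.93 CPM. The double mutant lay below all other libraries for both, with replicate 4 highest. The interactions were -6.15 (SE 1.14, adjusted p = 0.0107) and -4.60 (SE 0.58, 0.000885). The next gene, CG13658, was also lower only in double mutants. Of the 214 genes 34 lay in 14 runs spaced within 20 kb, the longest being the 5 Enhancer of split genes. Whether an equal number of other tested genes would form fewer runs was not tested.

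On the lower side also stood CG32447 (-3.36, SE 0.63, adjusted p = 0.0107), the cuticle protein gene Cpr64Aa (-2.77, SE 0.45, 0.00454), the metallothionein MtnE (-2.26, SE 0.44, 0.0115) and lncRNA:CR33938 (-2.35, SE 0.36, 0.00292). The last was at 46.3 to 65.3 CPM in the control, 52.4 to 71.1 in Sep2 mutants, 31.4 to 70.6 in Sep5 mutants and 8.06 to 11.5 in double mutants. Cpr64Aa was at 2.91 to 4.32 CPM in the control, 4.44 to 8.75 in Sep2 mutants, 4.21 to 7.76 in Sep5 mutants and 1.16 to 2.62 in double mutants. Its higher single mutants, not called against the control, thus make up part of its interaction. lncRNA:CR44334 fell to between 0 and 3 reads per double mutant library, from 25 to 56 in the control, so the size of its interaction (-4.52) depends on the count added before logs. All single mutant libraries of this gene, at 1.5 to 2.22 CPM, lay above every control library (0.601 to 1.49).

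Among the 126 genes that were higher only in double mutants, CG42399 (2L, 144231 to 153300) had a stable call. Its level was 10.9, 13.4, 10.2 and 7.77 CPM in the control, 7.97, 10.7 and 9.41 in Sep2 mutants, 9.53, 11.4 and 8.96 in Sep5 mutants and 142, 124, 548 and 191 in double mutants. Neither single mutant was called against the control (-0.16, 95% interval -0.98 to 0.67, and -0.06, -0.89 to 0.76), while the double mutant rose by 4.31 (SE 0.36), with replicate 3 highest and an interaction of 4.53 (SE 0.55, adjusted p = 0.000737). The gene six-banded (sba; 3R, 23894174 to 23922973) went from 141, 78.4, 79.6 and 110 CPM in the control, 164, 137 and 127 in Sep2 mutants and 70.3, 77.7 and 73 in Sep5 mutants to 810, 479, 1160 and 928 in double mutants. Again no double mutant library overlapped the others, and the interaction was 2.93 (SE 0.39, adjusted p = 0.00118).

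The serine protease gene Tequila (teq) was at 59.8, 73.1, 79.4 and 70.8 CPM in the control, 81.8, 73.4 and 131 in Sep2 mutants, 42.5, 35.9 and 49.8 in Sep5 mutants and 209, 247, 244 and 192 in double mutants. The Sep5 mutant lay below the control (-0.73, adjusted p = 0.0508, not called) and the double mutant above it, so the interaction of 2.00 (SE 0.29, adjusted p = 0.00218) exceeded the change of the double mutant (1.65, SE 0.19). The scavenger receptor gene Sr-CI, expressed in hemocytes, was highest in double mutants too, with 10.5 to 17.5 CPM in the control, 12.9 to 23.5 in Sep2 mutants, 6.39 to 9.67 in Sep5 mutants and 33.6, 37.5, 43.1 and 48.8 in double mutants (interaction 1.99, SE 0.35, adjusted p = 0.00724). The summed level of 16 hemocyte markers was 819 to 1100 CPM in double mutants, 478 to 748 in the control, 647 to 1300 in Sep2 mutants and 424 to 574 in Sep5 mutants, and its part in this result was not tested. CG7720 (1.85, adjusted p = 0.00807), CG31019 (2.90, 0.00482), the adenylyl cyclase gene ACXD (1.67, 0.0124), CG7882 (1.52, 0.0115) and wengen (wgn, a tumour necrosis factor receptor; 1.13, 0.0127) were also stable.

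**Figure D4:**
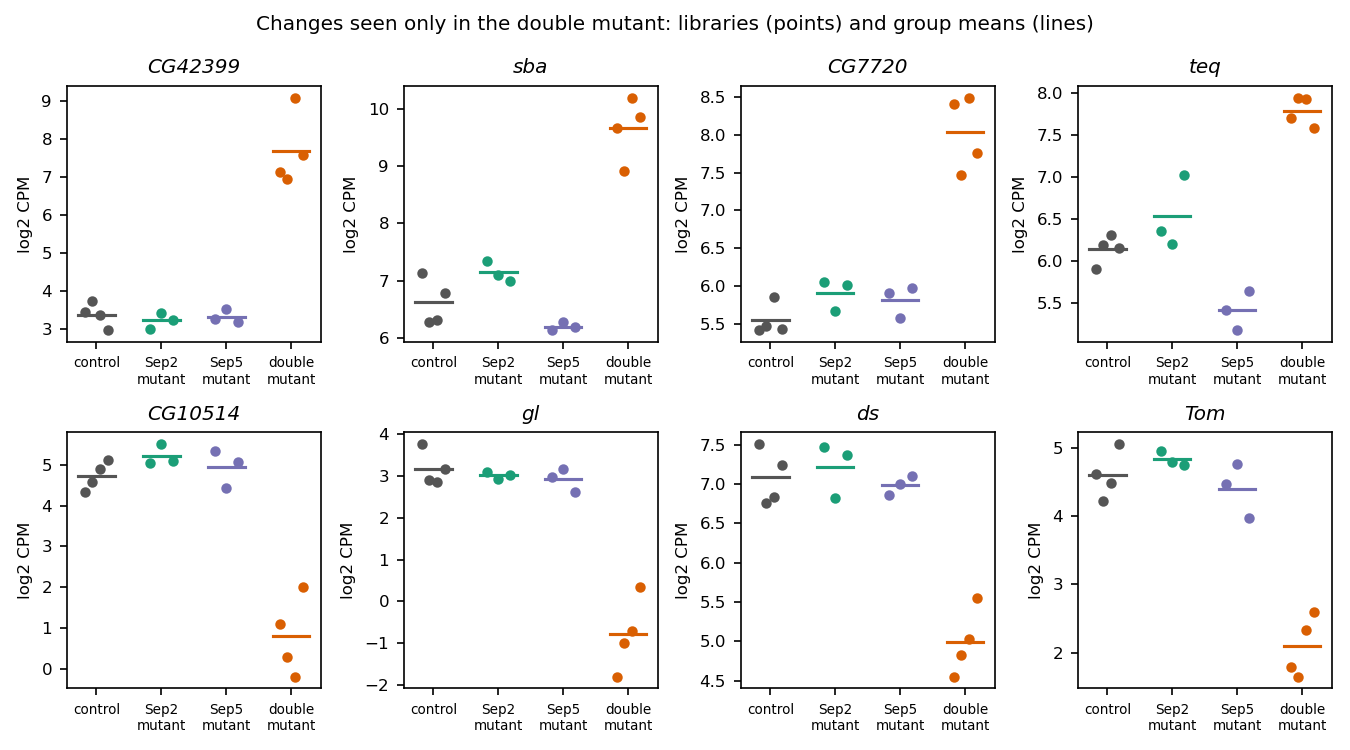
Deposited log2 CPM (vertical axis) of 8 genes changed only in double mutants, with 1 point per library and a line at the group mean. CG42399, sba, CG7720 and teq are higher and CG10514, gl, ds and Tom lower in all 4 double mutant libraries than in every library of the other groups.

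Of 6 tested genes of tyrosine breakdown 4 had a called interaction (66.7%, beside 4.47% of all genes). Hpd, which oxidises hydroxyphenylpyruvate, was at 2.62, 6.09, 5.77 and 2.16 CPM in the control, 3.08, 3.33 and 6.32 in Sep2 mutants, 12.7, 3.53 and 9.71 in Sep5 mutants and 49.8, 61.4, 93.6 and 83.9 in double mutants. All double mutant libraries were above the rest; the interaction of 3.10 (SE 0.65, adjusted p = 0.0179) was lost without Sep2 mutant replicate 1 (0.0559) or 2 (0.0529). The following enzyme, homogentisate dioxygenase (hgo), rose from 0.66 to 8.40 CPM in the control to 52.5 to 110 in double mutants, with an interaction of 3.28 (adjusted p = 0.0429) kept in 4 of the 14 fits. Of the maleylacetoacetate isomerases, GstZ2 was higher only in double mutants (1.38, adjusted p = 0.0232, in 11 of the 14 fits), whereas its neighbour GstZ1 was higher in all mutants, with an interaction of -1.36 (0.0461) in 2 of the 14 fits. Neither was called with the replicate block (adjusted p = 0.0544 for GstZ2 and 0.101 for GstZ1). All 6 tested members were higher in double mutants than in the control, as were 22.5% of all genes.

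Of 22 voltage-gated channels and their auxiliaries 5 had a called interaction (22.7%), all positive, and of 43 amine and peptide receptors 6 (14%), all positive, in lists drawn up after values had been seen and beside 4.47% of all genes. Apart from 1 gene in each list, Elk and Lgr1, these calls depended on single libraries. Among the channels Teh2 was kept in 13 of the 14 fits, Shaw in 10, Shab in 8 and Slob in 4, and among the receptors DopEcR and Lkr in 7, Pdfr in 6, Dh31-R in 3 and Proc-R in 2. With the replicate block Shaw, Slob and Lkr were not called (adjusted p = 0.0616, 0.0555 and 0.0593). The potassium channel gene Elk was at 11 to 13 CPM in the control, 7.08 to 8.82 in Sep2 mutants, 9.47 to 12.9 in Sep5 mutants and 17.4, 14.4, 21.7 and 21.5 in double mutants (interaction 1.33, SE 0.26, adjusted p = 0.0133). The glycoprotein hormone receptor gene Lgr1 was at 21.7 to 34.1 CPM in the control, 16.8 to 24 in Sep2 mutants, 23.8 to 32.5 in Sep5 mutants and 45.4 to 67.5 in double mutants (1.45, SE 0.29, 0.0134). Both sets had negative medians in Sep2 mutants (-0.39 and -0.29) and positive ones in double mutants (0.54 and 0.34). The microtubule-associated protein gene tau was at 21.1 to 27.7 CPM in the control, 35.3, 30.6 and 42.3 in Sep2 mutants, 22.2, 26.8 and 26.5 in Sep5 mutants and 68.6, 92.6, 182 and 201 in double mutants. All Sep2 mutant libraries also lay above the control (0.57, adjusted p = 0.290, not called). Its interaction (1.72, adjusted p = 0.0379; 0.0544 with the replicate block) was kept in 3 of the 14 fits. Among 25 postsynaptic genes of the neuromuscular junction the adhesion protein gene Nlg1 was called, and among 25 presynaptic release genes Cadps, which is 4% of each list beside 4.47% of all genes. Nlg1 was kept in 3 of the 14 fits and Cadps in 13, and neither was called with the replicate block (adjusted p = 0.0612 and 0.0636). Cadps was lower in Sep2 mutants (-1.21, adjusted p = 0.00106) and not called in double mutants.

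Scale mattered here too. On CPM values 47 of the 126 genes that were higher and 18 of the 88 that were lower kept a called interaction, none with a changed sign. Among stable genes described above, sba, teq, Sr-CI, CG31019, ACXD, CG7882, CG10514, CG11892, sti, ato, MtnE, Cpr64Aa and lncRNA:CR44334 kept it, while CG42399, CG7720, wgn, Elk, Lgr1, gl, ds, Tom, neo, mey, nyo, sc, fd96Ca, CG32447, lncRNA:CR33938 and the Enhancer of split genes did not. Leaving out libraries in turn, the called interaction was kept in every fit by 27 of the 126 and 30 of the 88. All conditions of the form were met in every fit by 17 of the 126 and 21 of the 88, so a stable call does not imply a stable form. Without both libraries that stood apart, gl, ds, Tom, neo, mey, E(spl)mdelta-HLH, E(spl)m7-HLH, sti, CG10514, CG11892, CG42399, sba, teq, Sr-CI, Hpd and Lgr1 kept their call. In the same fit sc (adjusted p = 0.0608), ato (0.0517), fd96Ca (0.0506), E(spl)m2-BFM (0.0608), E(spl)m8-HLH (0.0655), Brd (0.0506), nyo (0.0539), MtnE (0.0608), wgn (0.0513) and Elk (0.0547) were not called, nor were Dll, vg, TfAP-2, zfh2, fng, dachs, fz, asp, bib, tau or GstZ2 (0.0503 to 0.191).

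The other 285 genes took mixed forms. In 15 the double mutant went against a single mutant called in the other direction. The serpin gene Spn42De (2R, 6885552 to 6888262) was at 2.64, 2.83, 4.05 and 2.86 CPM in the control, 0.785, 0.322 and 0.374 in Sep2 mutants, 7.63, 4.10 and 8.14 in Sep5 mutants and 17.2, 25.3, 13.5 and 22.3 in double mutants. No 2 groups overlapped, and the interaction was 4.11 (SE 0.46, adjusted p = 0.000435). Ir76a, an ionotropic receptor gene, was called lower in Sep5 mutants (-1.86) and higher in double mutants (0.92), with 5.67 to 8.54 CPM in the control, 1.16 to 2.61 in Sep5 mutants and 10.1 to 20.1 in double mutants. All Sep2 mutant libraries of Ir76a, at 3.79 to 4.54 CPM, also lay below the control (-0.77, adjusted p = 0.168 in limma, not called). The circadian clock gene timeless (tim) was lower in Sep2 mutants (1.68 to 2.90 CPM against 3.63 to 6.73) and higher in double mutants (7.48 to 10.7), with an interaction of 2.92 (SE 0.39, adjusted p = 0.00126). All Sep5 mutant libraries of tim, at 1.90 to 3.43 CPM, also lay below the control (-0.88, adjusted p = 0.0838 in limma, not called). The time of day of collection is not stated in the labels. The gene hll went from 10 to 29.2 CPM in the control to 48.6 to 65.8 in Sep2 mutants and 1.97 to 6.29 in double mutants.

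In 14 genes both single mutants were called in the same direction and the double mutant was not called. CG5866 was at 0.817, 2.11, 4.86 and 3.70 CPM in the control, 19, 13 and 23.2 in Sep2 mutants, 29.3, 8.51 and 15.8 in Sep5 mutants and 4.87, 7.21, 4.42 and 3.08 in double mutants. Each single mutant library was above every control and double mutant library, and the interaction was -4.61 (SE 0.74, adjusted p = 0.00406). CG40498 was lower in both single mutants (12.4 to 17.3 CPM against 20.8 to 31.1) and at 19.4, 32.5, 34.7 and 36.8 in double mutants (1.98, SE 0.33, 0.00485). The non-coding lncRNA:CR44547 had 0 to 3 reads per control library and 1 read in all 4 double mutant libraries together, but 17 to 31 per Sep2 mutant and 25 to 270 per Sep5 mutant library. Its size, -8.30, depends on the count added before logs.

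In 110 genes 1 single mutant was called and the double mutant was not, the Sep2 mutant in 86 and the Sep5 mutant in 24. CG12824 (2R, 7790368 to 7791170) was at 3.81, 3.04 and 0.608 CPM in Sep2 mutants and between 17.1 and 61.2 in every other library, and its interaction was 3.84 (SE 0.75, adjusted p = 0.0125). The phagocytosis receptor gene NimC1 of hemocytes was lower in Sep2 mutants (6.71, 4.04 and 8.38 CPM against 15.2 to 20.5 in the control), and was at 13.3 to 22.6 in double mutants. Sep5 mutant libraries, at 14.9, 9.24 and 5.52 CPM, also lay below every control library (-0.92, adjusted p = 0.11, not called). The interaction was 2.51 (SE 0.45, adjusted p = 0.00789). PGRP-SC2, an amidase that degrades peptidoglycan, was higher in Sep2 mutants, at 369, 469 and 509 CPM against 61.3 to 127 in the control and 71.8 to 186 in double mutants (-2.68, SE 0.53, 0.0138). The stress gene TotE reached 81.4, 18.7 and 2.48 CPM in Sep2 mutants, unequal between libraries, and stayed under 0.26 CPM in all others. It thus passed the filter through the Sep2 mutant libraries alone.

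In 6 genes the double mutant exceeded a called single mutant by more than the sum. The cuticle protein gene Cpr47Eb was at 27.7 to 46.3 CPM in the control, 21.2 to 40.9 in Sep2 mutants, 123, 69.2 and 197 in Sep5 mutants and 390, 640, 438 and 688 in double mutants. The groups formed steps without overlap from the control to the Sep5 mutant to the double mutant, with an interaction of 2.57 (SE 0.48, adjusted p = 0.00971). BomT3 is of this form, and its neighbour BomBc3, for which neither single mutant was called, also rose in double mutants; both encode immune peptides induced by Toll signalling, with interactions of 2.66 (adjusted p = 0.0177; 0.0559 without Sep2 mutant replicate 1 and 0.0566 with the replicate block) and 3.20 (0.00271). BomBc3 was at 0.36 to 0.55 CPM in the control, 0.107 to 0.281 in Sep2 mutants, 0.602 to 1.36 in Sep5 mutants and 3.93 to 5.49 in double mutants. Both genes were below 0 log2 CPM in every control and Sep2 mutant library. They thus passed the filter only through the groups where they were higher, which limits what their adjusted p-values can show.

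The last 140 genes fitted none of these forms, and in 67 of them no mutant was called against the control. In the other 73 the double mutant was called, among them the digestive trypsin gene epsilonTry, at 838, 389, 669 and 375 CPM in the control, 1190, 1200 and 1730 in Sep2 mutants, 0.545, 0.117 and 0.224 in Sep5 mutants and 83.3, 63.9, 103 and 66.4 in double mutants. The double mutant lay between the Sep5 mutant and the control (interaction 6.53, SE 0.51, adjusted p = 1.41e-05), and that of betaTry, beside it, was positive too (2.14, 0.0272, in 11 of the 14 fits). On CPM values the sign of both turned. Salivary glue genes gave 4 negative interactions among 8 tested (50%, beside 2.26% of all genes), without a call in either single mutant. Sgs8 was kept in 5 and Sgs5 in 4 of the 14 fits, and with the replicate block they were not called (adjusted p = 0.0714 and 0.0848). Sgs1, for example, was at 117 to 553 CPM in the control, 610 to 761 in Sep2 mutants, 103 to 734 in Sep5 mutants and 35.1 to 117 in double mutants (-3.80, adjusted p = 0.0272, in 7 of the 14 fits). Septin2 itself had an interaction of -4.58 (adjusted p = 0.0307), kept in 5 of the 14 fits, and that of Septin5 was 1.88 (0.197) and of w 1.27 (0.290), both not called. Against the control w was called higher in Sep5 mutants (1.86, adjusted p = 0.0308 in limma) and double mutants (2.08, 0.00162). In Sep2 mutants it was not called (-1.05, 0.207). Its level was 1.42 to 2.38 CPM in the control, 0.665 to 1.36 in Sep2 mutants, 5.23 to 8.35 in Sep5 mutants and 4.44 to 20.6 in double mutants.

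Many lists held no called interaction, although the double mutant differed widely from the control in them. None was called by limma among 12 thin filament and 13 thick filament and Z-disc genes of muscle, of which 9 and 10 were higher in double mutants, among 39 complex I subunits (29 higher), 92 cytosolic ribosomal proteins (37 higher), 19 early ecdysone response genes (14 lower) or 15 glycolytic enzymes (10 higher), beside 22.5% of all genes higher and 22.5% lower. Median interactions of these lists were 0.17, -0.09, -0.27, 0.14, -0.56 and -0.31. The summed thin filament RNA was 5650 to 12300 CPM in the control, 7430 to 15300 in Sep2 mutants, 12700 to 21900 in Sep5 mutants and 17500 to 39200 in double mutants. Of 57 lists drawn up for these larvae 31 held at least 1 called gene, with 71.4% of 7 lysozymes and 66.7% of 6 tyrosine breakdown genes at the upper end.

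**Figure D5:**
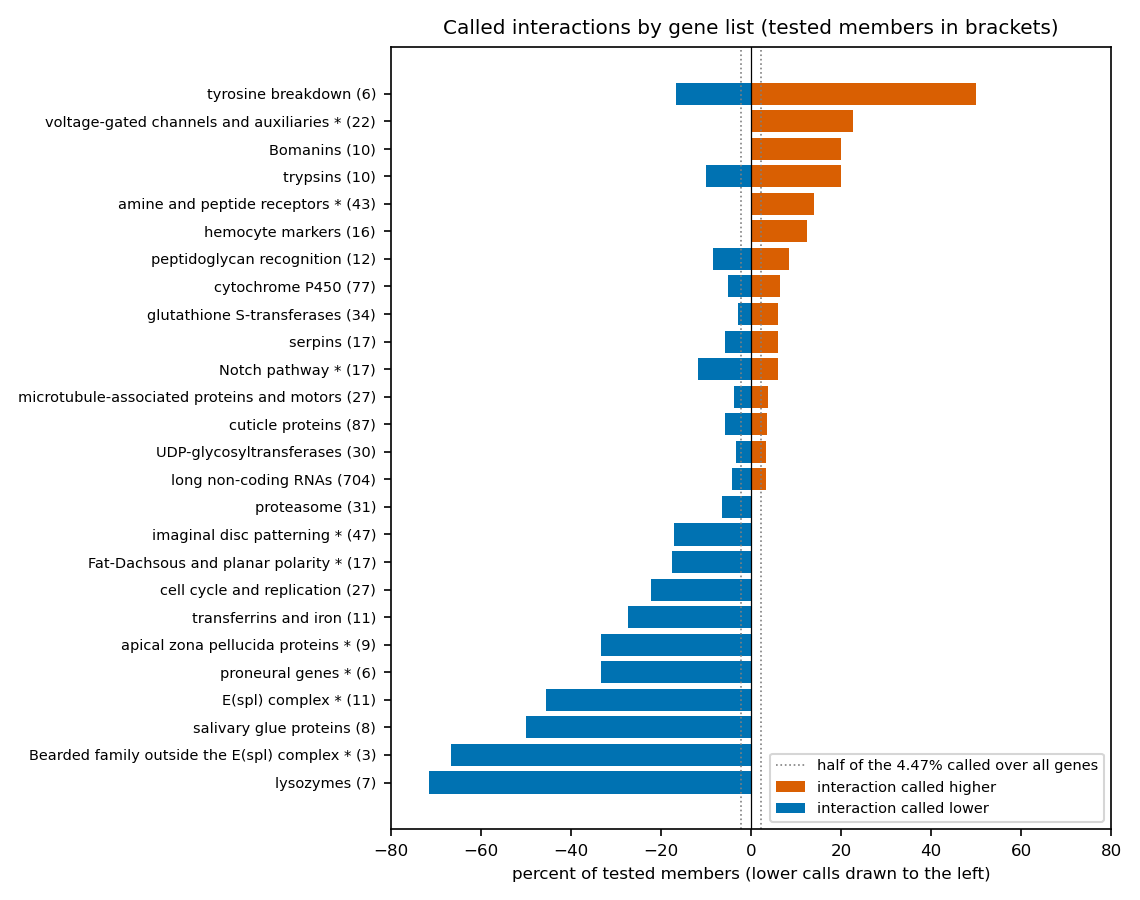
Percent of tested members with a called interaction, by list, for lists with at least 2 called members; lists marked with an asterisk were drawn up after values had been seen. Bars to the right are interactions above the sum and bars to the left below it, and dotted lines mark an even split of the 4.47% called over all genes; the lysozymes reach 71.4% on the left and tyrosine breakdown holds 3 of 6 on the right.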

How the data were processed

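Values are log2 CPM as deposited by the authors, scaled by TMM per the series text. The submitters' processing notes list FastQC 0.11.9, cutadapt 3.5, STAR 2.7.11b and edgeR 3.40, with BDGP6 and dm6 as builds; the counting tool and the use of strand are not given in the sources used here. Each of 212109 deposited values above the floor of -3.65 log2 CPM (0.0797 CPM) was a whole number of reads within 0.01 (100%), and CPM in the text is the value less that floor. Floors and reads cover counting error only. Positions are those of Ensembl for BDGP6.

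One linear model with genotype as its term was fitted to all 14 libraries in limma 3.58.1 (R 4.3.3), with an intensity trend and robust shrinkage. All adjusted p-values, standard errors and intervals (95%) are from limma, adjusted by Benjamini-Hochberg over the 12586 genes. Nothing in the labels says that libraries of a genotype came from separate animals, so p-values measure only how these samples vary, which may be technical variation. The members, lists and tests were chosen with earlier results of these data known, and 9 lists after single genes' values were seen. Named are Septin2, Septin5 and w; genes with the largest effects in each form (10 a direction for the interaction, 8 for the first 2 forms, 4 for others) whose mean reaches 2 log2 CPM and whose call is stable; and up to 3 called members per list. Other Enhancer of split and Bearded genes, N and members of the 9 later lists were added after their values were seen. The fit was also run on simulated reads with the same spread for all genes and groups. That setting is simpler than these libraries, so the run does not vouch for the calls given here.

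Replicate numbers come from the labels, where nothing ties a number to an animal, a batch or a day. Between control and Sep2 mutant, libraries with the same number departed together from the group mean, with correlations of 0.305, 0.452 and 0.166, each above 0.1. This held for no other pair of groups, and between double and Sep5 mutant the correlations were -0.366, -0.405 and -0.0445. A fit with the replicate as a block was an alternative, but its block term applies to all genotypes alike. Others were other filters, an added 1 CPM, quantile normalization, median centring, no trend, sample weights, voom on recovered reads, CPM values in place of logs, a 2-fold minimum and the omission of libraries. Chi-squares per degree of freedom between libraries of a genotype were 25.6 or more, so none was taken for a duplicate.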

Additional observations from a re-analysis of the deposited data

Results flagged for a closer look

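In 16 of 266 groups of 4 libraries examined for named genes (6.02%), the highest or lowest library was further from the rest than Dixon's 95% critical value allows; the value given is the gap to the nearest library as a share of the group's range; chance gives about 1 in 20 groups. Of these, 6 fell on control replicate 4, 4 on double mutant replicate 4, 3 on double mutant replicate 2, 2 on control replicate 3 and 1 on control replicate 2. Control replicate 4 was high for E(spl)malpha-BFM (0.874), E(spl)mdelta-HLH (0.892), E(spl)m4-BFM (0.835), zfh2 (0.917) and lncRNA:CR43839 (1, with 5 reads against none in the other control libraries) and low for CG31019 (0.838). Double mutant replicate 4 was high for phr (0.86), ImpE2 (0.879) and lncRNA:CR44547 (1, a single read) and low for CG12824 (0.868). Double mutant replicate 2 was high for GstZ1 (0.838) and Ugt37A1 (0.839) and low for Obp56b (0.91). Control replicate 3 was high for CG7720 (0.875) and Dh31-R (0.902), and control replicate 2 was low for TotE (0.933), at 3 reads. The 562 genes with a called interaction are those where the double mutant departed from the sum of the single changes on the log2 scale. Whether this departure comes from the septins or from other differences between the stocks was not tested.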

How the results depend on the processing

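Against 562 interactions, 63 shared genes and 214 genes changed only in the double mutant, sample weights gave 2204, 152 and 449, the linear CPM scale 268, 21 and 87, and double mutant replicates 1 and 2 alone 203, 38 and 69. With sample weights 553 of the 562 interactions were still called, and 60 of the 63 and 97 of the 214 genes kept their form. A filter of 2 log2 CPM in 3 libraries left 38 shared genes, and a 2-fold minimum left 130 genes changed only in the double mutant. Omitting Sep5 mutant replicate 2 and Sep2 mutant replicate 3 together, an alternative chosen after seeing the data, gave 190, 41 and 35. Leaving out 1 library at a time gave 226 to 613, 42 to 69 and 60 to 283. With the replicate as a block the counts were 440, 53 and 195, and 341 of the 562 calls were kept. Under the other alternatives (every gene with reads, 1 CPM added, quantile normalization, median centring, no trend, voom) each count stayed within 1.5 times of the value above. Interactions above the sum made up 49.5%, and 58.7% after median centring. Among named genes a called interaction changed sign only on the linear scale, where its value, relative to the gene's mean CPM, was -1.51 for epsilonTry, -0.71 for betaTry, 0.21 for LysD and 0.28 for Cyp6a17; of the uncalled genes, Septin5 was at -0.33 there, and E(spl)m5-HLH ranged from -0.57 to 0.06 when 1 library was left out, above 0 without control replicate 2 (0.04) or Sep5 mutant replicate 3 (0.06). Of 123 named genes with a called interaction, 29 kept it under every alternative. Beyond these cases the cause of a lost call was not tested. With 3 or 4 libraries a genotype and a median standard error of 0.37 log2, interactions of a size near 2-fold were detectable only for genes of low spread.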

Other observations

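Metallothioneins, small proteins that bind copper and zinc, gave 3 negative interactions among 11 transferrin and metal-binding genes (27.3%, beside 4.47% of all genes), in more than 1 form. MtnC was at 0.147 to 0.374 CPM in the control, 5.32, 9.19 and 3.93 in Sep2 mutants, 1.36, 1.03 and 0.448 in Sep5 mutants and 2.04, 1.23, 0.803 and 3.19 in double mutants. All mutant libraries were above the control, with the Sep2 mutant highest, and the interaction was -3.32 (SE 0.67, adjusted p = 0.0147), not called without replicate 2 of the Sep2 mutant. MtnB was ordered alike, with 1.56 to 2.94, 11.4 to 30.8, 3.81 to 5.50 and 5.09 to 14.3 CPM (-2.25, adjusted p = 0.0272, kept in 9 of 14 fits). MtnE went up to 22.2 to 35.2 CPM in Sep2 mutants, not called, and down to 3.32 to 7.36 in double mutants from 10.8 to 19.3 in the control. All 3 genes lie within 1 Mb of Septin2 on 3R, as do 10 of the 562 genes with a called interaction (1.78%) and 208 of all tested genes (1.65%).

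The serpin gene Spn43Aa fell from 20.2 to 54.9 CPM in the control to 0.579 to 1.28 in double mutants, with 30.5 to 65.4 in Sep2 mutants and 37.5, 24.7 and 3.06 in Sep5 mutants. Its interaction was -4.72 (SE 0.93, adjusted p = 0.0128). The drosomycin-like gene Drsl2, an immune peptide gene, was at 21 to 60.5 CPM in the control, 49.7 to 116 in Sep5 mutants and 28, 11.4 and 0.328 in Sep2 mutants, and had 0 to 4 reads per double mutant library (-6.18, adjusted p = 0.0338, kept in 6 of 14 fits). The uneven Sep2 mutant libraries of this gene include replicate 3, which also stood apart on the first principal component.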
